A study of Mus musculus with 6 samples.

Results

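The transcripts of 9 genes that the transcription factor ATF4 is known to activate were measured in mouse embryonic fibroblasts (MEFs) with and without a heterozygous knockout of Nipbl. The genes are Phgdh and Psat1 of serine synthesis, Shmt2 and Mthfd2 of mitochondrial folate metabolism, the asparagine synthetase Asns, the amino acid transporters Slc7a5 and Slc7a11, and the stress regulators Trib3 and Sesn2. They were picked by name from a list of known ATF4 targets that lie on the minus strand. They make up 9 of the 38483 genes in the count tables. Their measured values were not part of that rule, though earlier results of these data were known when they were chosen. All 9 had enough reads to be tested.

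NIPBL loads cohesin onto chromosomes, and heterozygous mutations of it cause Cornelia de Lange syndrome, for which the Nipbl+/- mouse is a model. RNA-seq was performed on 3 WT and 3 Nipbl+/- MEF cultures of strain CD1 at passage 3, grown in DMEM with fetal bovine serum and given no further treatment. The Nipbl+/- cultures carry the knockout allele in every cell, and the WT cultures are described as coming from littermates. The methods describe a single litter at mid-gestation, and the cultures hold cells that grew out of the body without its inner organs, brain or limbs. The RNA protocol in the labels names mouse ES cells, whereas the source and cell type labels of all 6 samples give embryonic fibroblasts.

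ATF4 is the effector of the integrated stress response. When eIF2 alpha is phosphorylated by its kinases, among them PKR (Eif2ak2, which senses base-paired RNA such as that of viruses) and GCN2 (which senses uncharged tRNA), most translation slows while the ATF4 mRNA is translated more, and ATF4 then raises the transcription of genes that make, import and charge amino acids. Dividing fibroblasts use the same genes to supply serine, glycine and folate-bound carbon for nucleotide synthesis, so the transcripts are also present without stress. The study reported higher phosphorylated PKR, phosphorylated eIF2 alpha and ATF4 in Nipbl+/- MEFs than in those of WT littermates. Those are measures of protein, which RNA counts do not give. The question here is whether transcripts of these ATF4 targets differed between the genotypes.

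ATF4 binds a composite element shared with C/EBP factors, and the promoters of the 9 genes were searched for its core, TGATGNAA or TTNCATCA on the other strand. RefSeq promoter windows of 300 bases (250 before and 50 after the annotated start, GRCm38.p6, the assembly of mm10) were matched by symbol for 8 of the 9 genes. Windows of 3 of these 8 genes held the core, against 1304 of all 32851 windows (3.97%). The stretches around these matches are shown because they hold the letters searched for, and binding of ATF4 to them was not tested. They are written 5′ to 3′ on the gene's strand, with the matches in capitals and positions counted from the RefSeq start.

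Asns, chr6:7693214-7693243, minus strand, positions -34 to -5: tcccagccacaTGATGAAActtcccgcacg

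Slc7a11, chr3:50443614-50443713, minus strand, positions -100 to -1: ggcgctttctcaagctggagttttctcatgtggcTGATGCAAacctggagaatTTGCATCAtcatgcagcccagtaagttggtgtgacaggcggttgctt

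Trib3, chr2:152344028-152344057, minus strand, positions 4 to 33: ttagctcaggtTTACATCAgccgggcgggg

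Slc7a11 held a pair of matches facing each other, at -66 to -59 and at -47 to -40. The Asns match lay on the gene's own strand at -23 to -16 and the Trib3 match on the opposite strand at 15 to 22. The gene intervals used for the counts place these starts elsewhere. By them Asns starts at 7693254, so its match lies inside the gene, and Trib3 starts at 152344032, so its match lies before the gene. The windows of Phgdh, Psat1, Shmt2, Mthfd2 and Sesn2 held no match, which says only that these letters are not in those bases.

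Total counts lay between 20307454 and 25990783 per culture, and the 9 genes together took between 0.154% and 0.18% of them. All 19214 genes of the plus strand are listed at 0 in every culture, so Atf4 itself, Ddit3 (CHOP) and every other plus-strand gene of the pathway could not be measured here. Nipbl (chr15:8291225-8444463) fell from 136 ± 8.26 CPM (WT, SD over n = 3) to 100.8 ± 0.505 CPM (Nipbl+/-, SD over n = 3), where CPM are counts scaled to library size after TMM normalization. That is a log2 fold change of -0.43 (SE 0.06, edgeR adjusted p = 0.0213), and leaving out WT replicate 1, Nipbl+/- replicate 1 or Nipbl+/- replicate 2 ended the call (adjusted p = 0.0755, 0.0864 and 0.0772). Of 16 fibroblast markers, the 11 on the plus strand are at 0, the collagens Col1a1, Col1a2 and Col3a1 among them, and the summed level of the other 5 (Fn1, Fbn1, Fbn2, Prrx1 and Fap) lay between 17137.6 and 20885.3 CPM in WT and between 18788 and 21123.4 CPM in Nipbl+/- MEFs. None of these 5 was called, and at an unadjusted p under 0.05 Fap was higher (log2 fold change 0.64) and Prrx1 lower (-0.30). Of 17 macrophage markers, 5 (Emr1, Csf1r, Tyrobp, Mrc1 and Laptm5) are at 0 on the plus strand, and 11 were tested. None of these 11 passed the adjusted threshold, 9 were higher in Nipbl+/- MEFs at an unadjusted p under 0.05 (8.98% of all tested genes were), and their summed level was 73.8 to 93.1 CPM in WT and 107.8 to 207.6 CPM in Nipbl+/- cultures. Their part in the results below was not tested. Xist counts exceeded Ddx3y counts in WT replicate 3 and Nipbl+/- replicates 1 and 2 and were far below them in the other 3 cultures, so both genotypes mix sexes.

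None of the 9 genes passed an adjusted p of 0.05 in either direction in the comparison of Nipbl+/- with WT MEFs. Among all 9061 genes tested, 1.04% were called higher and 0.916% lower (1.95% in either direction), and 0 of 9 is near this background. With edgeR's exact test (2.42% of all genes called higher, 2.35% lower) and with DESeq2 (2.62% and 2.34%) none of the 9 was called either. At an unadjusted p under 0.05, 0 of the 9 genes were higher and 1, Asns, was lower, against 8.98% and 7.95% of all genes. All 9 fold changes were below 0, against 51.6% of all tested genes, and their median log2 fold change was -0.07 against -0.01 over all genes. The size of that median rests on few cultures. Without WT replicate 2 it was -0.13 and without Nipbl+/- replicate 3 it was -0.04, with 7 of the 9 genes below 0 in the latter fit. With library size in place of TMM, 7 of the 9 genes lay below 0, and on the deposited RPKM 6 of the 9 did. In these fits the median over all tested genes also moved up, to 0.03 and 0.04. The median of the 9 genes was then -0.04 and -0.03. With 3 cultures a genotype, the 95% intervals of the fold change ran down to 0.74-fold for Trib3 and up to 1.16-fold for Slc7a5. A change that lies between the ends of a gene's interval is not shown to be absent. In bulk RNA, fewer cells of a type and less RNA per cell cannot be told apart.

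**Figure D1:**
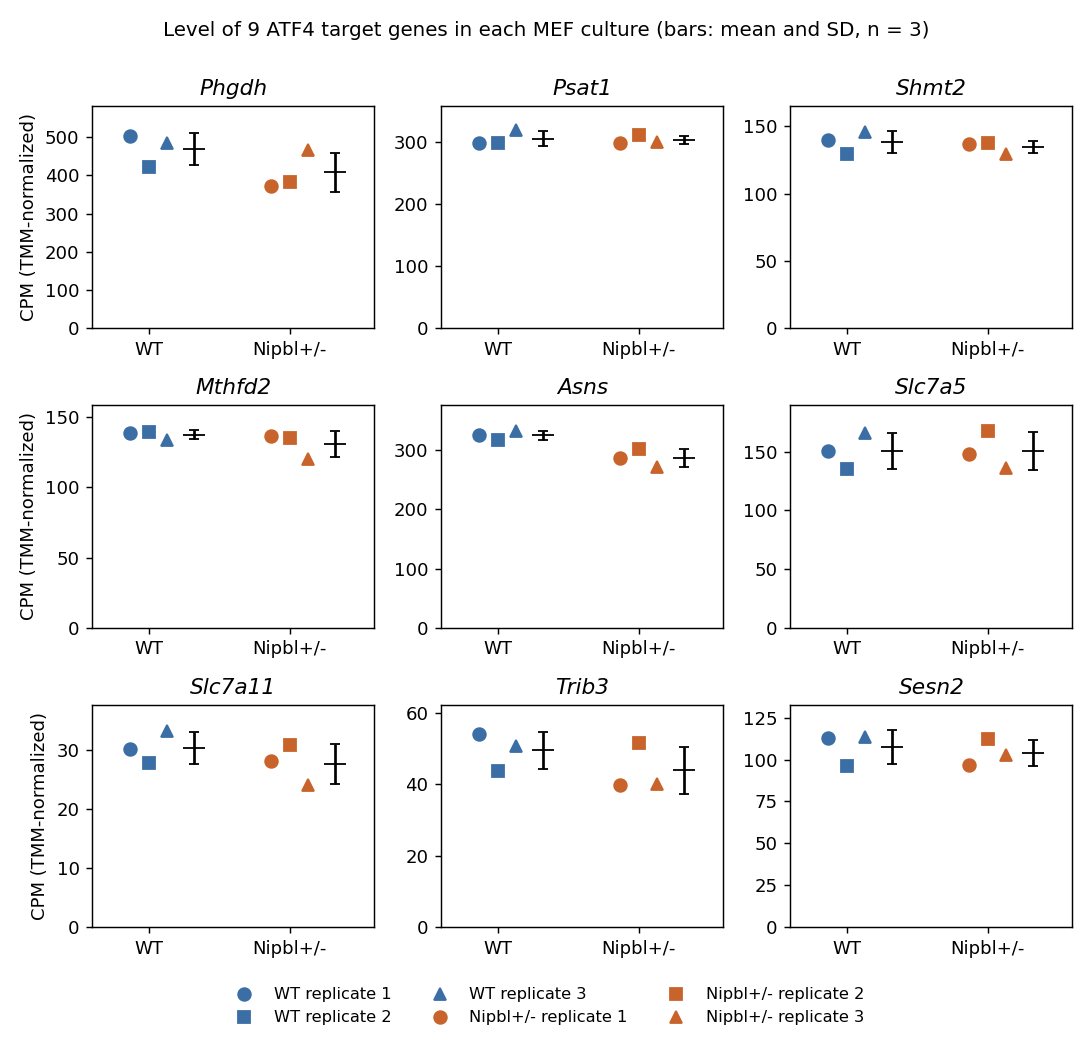
TMM-normalized CPM (y axes, starting at 0) of each of the 9 genes in the 3 WT cultures (blue) and 3 Nipbl+/- cultures (orange), with the symbol giving the replicate number and bars the mean and SD. Only the Asns panel has all 3 Nipbl+/- cultures (272 to 301 CPM) below all 3 WT cultures (316 to 332 CPM), and in the other 8 panels the genotypes overlap.

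Serine synthesis branches from glycolysis with Phgdh, the dehydrogenase that commits 3-phosphoglycerate to the pathway. Phgdh (ENSMUSG00000053398, chr3:98313170-98339990) was at 502, 421 and 484 CPM in the WT cultures and at 373, 383 and 467 CPM in the Nipbl+/- cultures. Nipbl+/- replicates 1 and 2 were below every WT culture, and replicate 3 lay within the WT range, so 8 of the 9 possible pairings of cultures across genotypes had the lower value in the mutant. The WT mean of 469 ± 42.8 CPM compared with 408 ± 51.6 CPM in the mutant (SD, n = 3 each). The log2 fold change of -0.20 (SE 0.10, 95% interval -0.43 to 0.02) did not pass the test (edgeR adjusted p = 0.343). It was -0.31 without Nipbl+/- replicate 3 and -0.14 without Nipbl+/- replicate 1, neither of them called.

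Psat1, the aminotransferase that follows Phgdh, showed no such spread. Psat1 (ENSMUSG00000024640, chr19:15904678-15947337) was at 298, 297 and 318 CPM in WT and at 298, 311 and 299 CPM in Nipbl+/- cultures. The genotypes overlapped almost entirely, with a log2 fold change of -0.01 (SE 0.05, 95% interval -0.12 to 0.10, adjusted p = 0.957), and the sign turned with library size in place of TMM. This interval was the narrowest among the 9 genes and spans 0.92-fold to 1.075-fold.

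Psph, the phosphatase that completes the pathway, was named as their partner whatever its values. It was at 51.4, 50.8 and 45.6 CPM in WT and 42.7, 47.5 and 41.5 CPM in Nipbl+/- cultures, lower in the mutant in 8 of 9 pairs, with a log2 fold change of -0.17 (SE 0.07, adjusted p = 0.302). The 3 enzymes of the pathway thus gave log2 fold changes of -0.20, -0.01 and -0.17, and none of them passed the test.

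Shmt2 splits serine in mitochondria into glycine and a carbon unit bound to tetrahydrofolate. Shmt2 (ENSMUSG00000025403, chr10:127517123-127522444) was at 140.0, 129.5 and 145.6 CPM in WT and at 136.7, 137.7 and 129.4 CPM in Nipbl+/- cultures. The Nipbl+/- values lay inside the WT range but for replicate 3, which sat at its lower edge. The log2 fold change was -0.04 (SE 0.06, 95% interval -0.18 to 0.10, adjusted p = 0.790), and on the deposited RPKM it was 0.0045.

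Mthfd2 oxidizes the folate-bound carbon unit that Shmt2 releases, and is known for high expression in embryonic and proliferating cells. Mthfd2 (ENSMUSG00000005667, chr6:83305691-83317606) was at 138.7, 139.7 and 133.9 CPM in WT and at 136.5, 135.3 and 120.0 CPM in Nipbl+/- cultures. The coefficient of variation of the WT cultures was 2.26%, and Nipbl+/- replicate 3 was the lowest of the 6. With a log2 fold change of -0.07 (SE 0.06, 95% interval -0.22 to 0.07), Mthfd2 was not called (adjusted p = 0.604), and without Nipbl+/- replicate 3 the value was -0.016.

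The cytosolic isozyme Shmt1 went the other way, at 15.02, 16.6 and 15.7 CPM in WT and 16.4, 17.8 and 18.2 CPM in Nipbl+/- cultures, with a log2 fold change of 0.15 (SE 0.08, adjusted p = 0.423). Mthfd1, Mthfd1l and Mthfd2l, the other members of the Mthfd family, are plus-strand genes listed at 0.

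Asns makes asparagine from aspartate and glutamine and is the best known amino acid response gene. Asns (ENSMUSG00000029752, chr6:7675169-7693254) was at 325, 316 and 332 CPM in WT and at 286, 301 and 272 CPM in Nipbl+/- cultures. Every Nipbl+/- culture was below every WT culture, which was true of no other of the 9 genes (1 of 9, against 10.8% of all tested genes with no overlap in that direction). The WT mean was 324 ± 7.87 CPM and the mutant mean 286 ± 14.7 CPM (SD, n = 3 each), and the exact two-sided permutation test gave p = 0.1, the smallest value that 3 against 3 cultures allow. Fitted across all genes, the log2 fold change was -0.18 (SE 0.05, 95% interval -0.30 to -0.06), or 11.8% lower, with an unadjusted p of 0.00869 and an adjusted p of 0.131 (edgeR, quasi-likelihood). It thus missed the threshold, and 599 of the 9061 tested genes (6.6%) had a p-value as small or smaller. Over the 18 alternatives the adjusted p of Asns lay between 0.0822 (DESeq2) and 0.378 (limma on RPKM) and its log2 fold change between -0.22 and -0.14.

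Slc7a5 (LAT1) imports leucine and other large neutral amino acids in exchange for glutamine. Slc7a5 (ENSMUSG00000040010, chr8:121881150-121907694) was at 151, 135 and 166 CPM in WT and at 148, 168 and 136 CPM in Nipbl+/- cultures. Each genotype spanned about the same range, from 135 to 166 CPM and from 136 to 168 CPM. Its log2 fold change was -0.0031 (SE 0.10, 95% interval -0.22 to 0.22, adjusted p = 0.992), and its sign turned with library size alone and in 3 of the 6 fits that left out a culture.

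Slc7a11 (xCT) exchanges glutamate for cystine and so feeds glutathione synthesis, and NRF2 (Nfe2l2) is known to drive it beside ATF4. Slc7a11 (ENSMUSG00000027737, chr3:50364936-50443613) was at 30.3, 27.8 and 33.2 CPM in WT and at 28.1, 30.8 and 24.1 CPM in Nipbl+/- cultures. The 3 mutant values straddle the lowest WT value, and 6 of the 9 pairs had the lower value in the mutant. The log2 fold change was -0.13 (SE 0.10, 95% interval -0.37 to 0.11, adjusted p = 0.571). Leaving out Nipbl+/- replicate 3 gave -0.045 and leaving out Nipbl+/- replicate 2 gave -0.22.

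Both transporters are joined to the heavy chain encoded by Slc3a2. Slc3a2 was at 174, 173 and 192 CPM in WT and at 176, 186 and 162 CPM in Nipbl+/- cultures, a log2 fold change of -0.04 (SE 0.07, adjusted p = 0.800). Nfe2l2 was at 113, 116 and 116 CPM in WT and at 110.2, 112 and 107 CPM in Nipbl+/- cultures, and although these did not overlap, the log2 fold change was only -0.07 (SE 0.05, adjusted p = 0.520).

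Trib3 is a pseudokinase that ATF4 induces and that in turn restrains ATF4 and AKT. Trib3 (ENSMUSG00000032715, chr2:152337422-152344032) was at 54.0, 43.7 and 50.7 CPM in WT and at 39.9, 51.6 and 40.1 CPM in Nipbl+/- cultures. Nipbl+/- replicates 1 and 3 were below all WT cultures, while replicate 2 was above all but the highest of them. The log2 fold change was -0.17 (SE 0.12, 95% interval -0.44 to 0.09, adjusted p = 0.503), the widest interval of the 9 genes. Without Nipbl+/- replicate 2 it was -0.31 and without WT replicate 1 it was -0.11, again not called. Its paralog Trib2 was at 48.9, 50.1 and 43.8 CPM in WT and 43.2, 41.4 and 46.4 CPM in Nipbl+/- cultures (log2 fold change -0.13, SE 0.07, adjusted p = 0.413), and Trib1 is listed at 0 on the plus strand.

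Sesn2 binds leucine and holds back mTORC1 when leucine is short. Sesn2 (ENSMUSG00000028893, chr4:132492032-132510501) was at 113, 95.9 and 113 CPM in WT and at 96.5, 112 and 103 CPM in Nipbl+/- cultures, all 3 mutant values inside the WT range. The log2 fold change was -0.05 (SE 0.08, 95% interval -0.24 to 0.14, adjusted p = 0.810), and ranged from -0.13 without WT replicate 2 to -0.0030 without Nipbl+/- replicate 1. The other sestrins, Sesn1 and Sesn3, are plus-strand genes listed at 0.

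**Figure D2:**
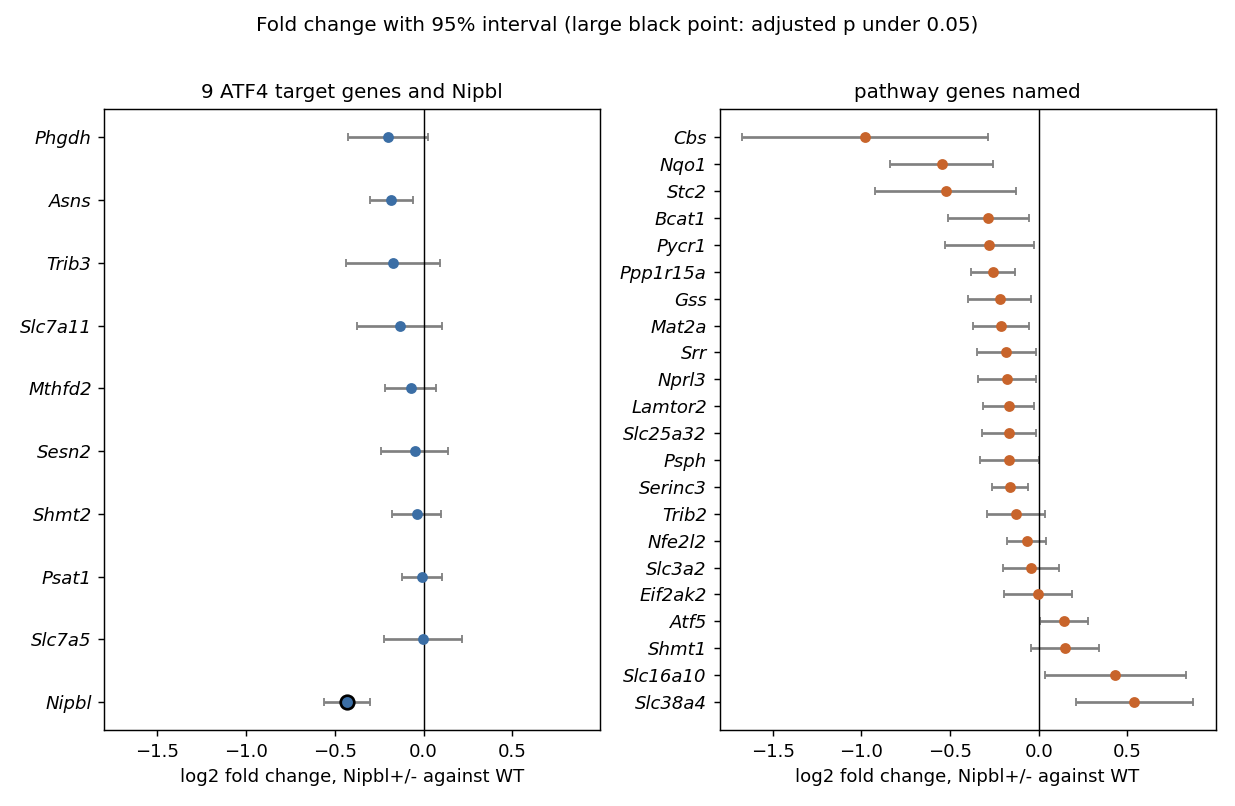
Log2 fold change of Nipbl+/- against WT MEFs (x axes) with its 95% interval for the 9 genes and Nipbl (left). On the right are the tested partners and paralogs and the pathway genes named by the size of their fold change. A large black-edged point marks an adjusted p under 0.05. Nipbl at -0.43 is the only such point, and among the 9 genes only the interval of Asns (-0.30 to -0.06) leaves out 0.

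Levels of the genes are compared with each other on the deposited RPKM, which divides by gene length. In WT MEFs the order was Phgdh (180 ± 17.8 RPKM, SD, n = 3), Asns (113 ± 5.25), Psat1 (68.2 ± 4.31), Shmt2 (57.2 ± 4.49), Mthfd2 (48.0 ± 0.277), Slc7a5 (38.7 ± 4.75), Sesn2 (29.5 ± 3.11), Trib3 (22.2 ± 2.44) and Slc7a11 (2.58 ± 0.288). No 2 neighbours in this order overlapped in the WT cultures. In the Nipbl+/- cultures the order of the means was the same, and a single pair of neighbours overlapped, Mthfd2 (43.9 to 48.6 RPKM) and Slc7a5 (36.5 to 44.1 RPKM). Phgdh was above 94.8% of all tested genes in RPKM and Slc7a11 above 28.4%, with the other 7 between 72.2% for Trib3 and 92.1% for Asns.

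**Figure D3:**
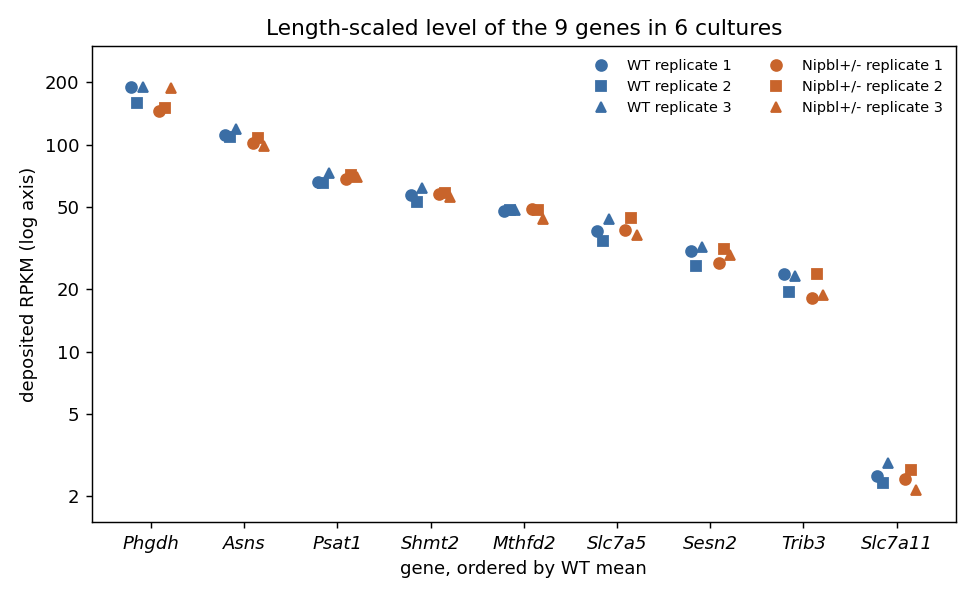
Deposited RPKM (y axis, log scale) of the 9 genes, ordered along the x axis by their WT mean, in 3 WT cultures (blue) and 3 Nipbl+/- cultures (orange), with the symbol giving the replicate number. The genes span from about 2.58 RPKM for Slc7a11 to 180 RPKM for Phgdh in WT, and the order of the genes is the same in both genotypes.

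Counts per culture ran from 505 for Slc7a11 in Nipbl+/- replicate 3 to 11061 for Phgdh in WT replicate 1, so counting error alone would give a coefficient of variation of at most 4.45% for Slc7a11, at most 1.99% for Mthfd2 and at most 1.1% for Phgdh. Between cultures of a genotype, Phgdh varied by 9.13% in WT and 12.6% in Nipbl+/- MEFs, Slc7a5 by 10.1% and 10.6%, and Trib3 by 10.6% and 15.2%. Psat1 varied by 3.86% and 2.26%, Asns by 2.43% and 5.14%, Shmt2 by 5.9% and 3.36%, and Mthfd2 by 2.26% and 7.05%. Slc7a5, whose means are 151 and 150.3 CPM, was thus among the most variable genes while Psat1, with a fold change as near to 1, was among the least.

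To give each culture a single level for the 9 genes, their log2 CPM was centred on each gene's mean over the 6 cultures and the median over the genes was taken. It was 0.07 for WT replicate 1, -0.06 for replicate 2 and 0.13 for replicate 3. Among Nipbl+/- cultures it was -0.04 for replicate 1, 0.03 for replicate 2 and -0.14 for replicate 3. WT replicate 2 was thus below Nipbl+/- replicates 1 and 2, and the highest and the lowest culture belonged to different genotypes. The cultures with abundant Xist reads were WT replicate 3 (0.13) and Nipbl+/- replicates 1 (-0.04) and 2 (0.03). Those without were WT replicates 1 (0.07) and 2 (-0.06) and Nipbl+/- replicate 3 (-0.14). Sex was thus not balanced between the genotypes. With the Xist level as a covariate, an alternative chosen after seeing the data, none of the 9 genes was called and their median log2 fold change was -0.09.

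By the root mean square distance of centred log2 CPM over the 6 cultures, the genes most like this median profile among 6095 candidates were Eif3s6-ps1 (0.0171), Alas1 (0.0236), Ckap4 (0.0237), Gm7808 (0.0262) and Zfp874a (0.0272). Alas1 makes the starting compound of heme and Ckap4 is a membrane protein of the endoplasmic reticulum. Eif3s6-ps1 is named as a pseudogene and its reads may belong to its parent gene. Their log2 fold changes, from -0.12 for Eif3s6-ps1 to -0.05 for Zfp874a, were not called (adjusted p from 0.484 to 0.829).

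Around the 9 genes, 208 genes in 10 lists of the same pathways were counted, of which 105 lie on the plus strand and are listed at 0 and 100 were tested. None of the 100 was called in either direction by edgeR's quasi-likelihood test, against 1.95% of all tested genes. At an unadjusted p under 0.05, 6 of the 100 were higher and 14 lower, against 8.98% and 7.95% of all tested genes. Of the fold changes 40 were above and 60 below 0 (51.6% of all genes were below), with a median of -0.02. The genotypes did not overlap for 7 of the 100 in the higher and 19 in the lower direction, against 12% and 10.8% of all genes. The exact test called Slc38a4 higher and Nqo1 and Ppp1r15a lower, and DESeq2 called Slc38a1 and Lonp1 besides, higher and lower respectively, where these tools called 2.42% and 2.62% of all genes higher and 2.35% and 2.34% lower.

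Among 24 genes of the eIF2 kinases and the ATF4 branch, 11 were tested. Eif2ak2, which encodes PKR, was at 111, 111 and 135 CPM in WT and at 121, 122 and 113 CPM in Nipbl+/- cultures, all mutant values within the WT range (log2 fold change -0.0040, SE 0.08, adjusted p = 0.988). Ppp1r15a (GADD34), the phosphatase subunit that removes phosphate from eIF2 alpha and is itself induced through ATF4, was at 72.3, 71.3 and 67.0 CPM in WT and 58.2, 61.6 and 56.4 CPM in Nipbl+/- cultures, a log2 fold change of -0.26 (SE 0.05, adjusted p = 0.0554). Atf5, a related factor under the same translational control, was at 135, 121 and 128 CPM in WT and 134, 144 and 145 CPM in Nipbl+/- cultures (log2 fold change 0.14, SE 0.06, adjusted p = 0.283). The median over the 11 genes was -0.0040, with 5 above and 6 below 0 (51.6% of all tested genes were below).

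Of 20 other ATF4 targets, 9 were tested, and their median log2 fold change was -0.11. Of the 9, 1 was above and 8 below 0, where 51.6% of all tested genes were below. The lowest were Cbs, of transsulfuration, at -0.98 (SE 0.30, adjusted p = 0.150), and the secreted glycoprotein Stc2 at -0.53 (SE 0.17, adjusted p = 0.174). Cbs rested on 19, 26 and 21 counts in WT and 8, 15 and 12 counts in Nipbl+/- cultures, for which counting error alone gives a coefficient of variation of up to 35.4%. Stc2 had 112 to 154 counts in WT and 81 to 119 in Nipbl+/- cultures. The 12 tested cytosolic tRNA synthetases, which ATF4 also raises as a group, had a median of -0.01 and a range from -0.11 to 0.07, the narrowest of the 10 lists, and none of them had an unadjusted p under 0.05.

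Within serine and glycine synthesis and cleavage, 8 of 14 genes were tested, with a median log2 fold change of -0.02. Srr, the serine racemase (-0.18, adjusted p = 0.255), and Serinc3, which places serine in membrane lipids (-0.16, adjusted p = 0.107), were the 2 genes of this list with an unadjusted p under 0.05. Both were lower, as were 7.95% of all tested genes at that limit. Of 21 folate and one-carbon enzymes 10 were tested, with a median of -0.02. Mat2a, which makes S-adenosylmethionine, had -0.21 (adjusted p = 0.165) and Slc25a32, the mitochondrial folate carrier, -0.17 (adjusted p = 0.252). Ahcy of the same list was higher (0.14, adjusted p = 0.189), also at an unadjusted p under 0.05. In other amino acid synthesis, 10 of 16 were tested, with a median of -0.03, and the largest sizes were those of Bcat1 (branched-chain aminotransferase, -0.28, adjusted p = 0.199) and Pycr1 (proline synthesis, -0.28, adjusted p = 0.256).

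Amino acid transporters were the list with the most genes on the higher side at an unadjusted p under 0.05. Of 25 listed transporters 12 were tested, 4 of them higher and 0 lower at that limit (8.98% and 7.95% of all genes), and the median log2 fold change was 0.08. Slc38a4, a carrier of small neutral amino acids, was at 42.7, 56.5 and 65.5 CPM in WT and at 90.1, 75.9 and 73.3 CPM in Nipbl+/- cultures, a log2 fold change of 0.54 (SE 0.14, adjusted p = 0.104). Every mutant culture was above every WT culture for Slc38a4, as for 12% of all tested genes, and likewise for Slc16a10, a carrier of aromatic amino acids (0.43, adjusted p = 0.261), at 2.74 to 3.36 CPM in WT and 3.52 to 4.58 CPM in Nipbl+/- cultures. The others of the 4 were Slc38a1 (0.27, adjusted p = 0.0579), with the smallest p-value of this list, and Slc38a2 (0.12, adjusted p = 0.291).

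Among sestrins, tribbles and amino acid sensing, 8 of 28 genes were tested (median -0.08). Of the 8, 1 was above and 7 below 0, against 51.6% of all tested genes below. Nprl3, of the GATOR complex that restrains mTORC1, had -0.18 (adjusted p = 0.256) and Lamtor2, of its lysosomal anchor, -0.17 (adjusted p = 0.227). For glutathione and NRF2 targets, 9 of 19 were tested (median 0.0033). Nqo1, a quinone reductase and standard NRF2 target, was at 29.9, 25.2 and 27.0 CPM in WT and 15.4, 19.2 and 21.7 CPM in Nipbl+/- cultures, a log2 fold change of -0.55 (SE 0.13, adjusted p = 0.0684), and Gss, glutathione synthetase, had -0.22 (adjusted p = 0.196). The 11 tested of 21 chaperones and other genes of the unfolded protein response had a median of 0.03 and a range from -0.09 to 0.10, with none at an unadjusted p under 0.05.

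**Figure D4:**
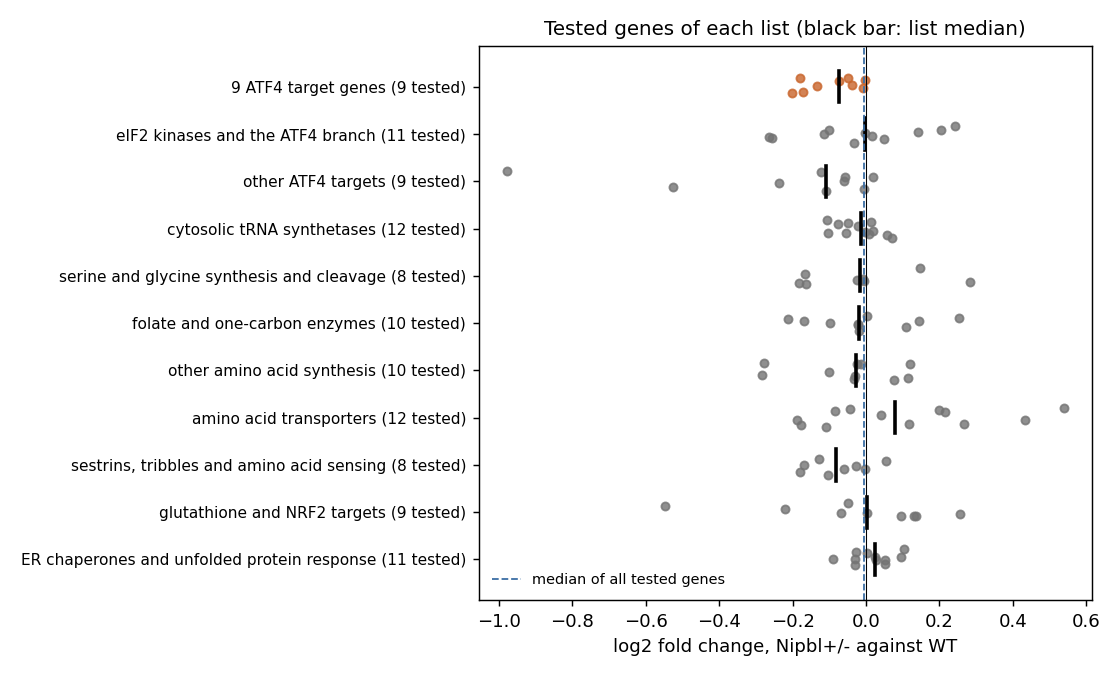
Log2 fold change of Nipbl+/- against WT MEFs (x axis) for every tested gene of the 9 ATF4 targets (orange) and of the 10 pathway lists (gray), with a black bar at each list's median, a solid line at 0 and a dashed line at the median of all tested genes. The medians run from -0.11 for other ATF4 targets to 0.08 for amino acid transporters, and the single points farthest from 0 are Cbs at -0.98, Nqo1 at -0.55 and Slc38a4 at 0.54.

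Some of the 9 genes share their interval with other annotated genes. Psat1, Shmt2 and Slc7a5 overlap Gm3329 (by 556 bases), Ndufa4l2 (30 bases) and Gm20388 (26545 bases) on the plus strand, and since these are at 0 in all cultures, reads of either gene in a pair cannot be told apart where counting did not use strand. Sesn2 overlaps the minus-strand gene Gm12981 by 6089 bases, which had 22 to 38 counts per culture against 2140 to 2932 for Sesn2.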

How the data were processed

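RNA-seq of ribo-depleted total RNA from 3 WT and 3 Nipbl+/- MEF cultures was analyzed. The authors aligned reads to mm10 with TopHat2 2.0.10 and Ensembl 72 (per the labels and methods), and deposited for each culture a raw count and an RPKM (the count per length and depth) for each of 38483 genes. The counting tool and its strand setting are not given in the sources used here. All 19214 plus-strand genes are at 0.

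Counts were filtered with filterByExpr (minimum count 10), normalized by TMM and compared between genotypes in edgeR 4.0.16 (R 4.3.3) by its quasi-likelihood F-test with no covariate, with Benjamini-Hochberg adjustment over 9061 genes and a threshold of 0.05. SEs are the absolute log2 fold change over the square root of F, and 95% intervals use the total degrees of freedom of the fit. The labels and methods call the cultures biological replicates. If they did not come from separate embryos, p-values cover only the spread between cultures. If they did, p-values cover the spread within the single litter that the methods describe, and not between litters. Counts of replicates differed by more than sampling noise (chi-square per degree of freedom 9.51 to 32.3). Total counts of 20307454 to 25990783 set the counting error. Centred log2 CPM used a prior count of 2 and permutation tests log2(CPM + 1).

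The 9 genes, the pathway and marker lists and the tests were chosen with earlier results of these data known. Named are the 9 genes, Nipbl, 14 partners and paralogs whatever their values, in each pathway list the 2 genes with the largest absolute fold change among those with an unadjusted p under 0.05, and the 5 genes nearest to the median profile (mean log2 CPM above 3). Slc38a1, Slc38a2, Ahcy, Lonp1, Krt8, Cldn4, Elavl4 and Nefm were named after their values were seen. Marker lists also covered endothelium (3 genes tested, 0 called), epithelium (2, 0), skeletal muscle (3, 0) and neural cells (2, 0). At an unadjusted p under 0.05, Krt8 of epithelium (log2 fold change 1.48) and Elavl4 of neural cells (1.35) were higher. The other tested genes of these lists, Cldn4 (0.75) and Nefm (1.06), were higher but did not pass that limit. Epithelial markers summed to at most 2.48 CPM and neural markers to at most 3.06 CPM in any culture. Alternatives were upper-quartile scaling, library size alone, the size factors of DESeq2 1.42.0, 2 other filters, the likelihood ratio and exact tests of edgeR, DESeq2 itself, limma 3.58.1 on log2(RPKM + 0.1), the replicate number as a block and each culture left out. The steps were tested on simulated data.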

Additional observations from a re-analysis of the deposited data

How the results depend on the processing

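None of the 9 genes was called, higher or lower, under any of 18 alternatives. In sign, Psat1, Slc7a5 and Eif2ak2 turned with library size alone (0.029, 0.032 and 0.031 on the log2 scale) and with limma on RPKM (0.035, 0.039 and 0.044), where Shmt2 also turned (0.0045). In these 2 fits the median over all tested genes was 0.032 and 0.037, against -0.0057 as reported. The cause was not tested. With each culture left out in turn, Psat1 lay between -0.027 and 0.024 (0.00031 without Nipbl+/- replicate 3), Slc7a5 between -0.089 and 0.071 (0.0073 and 0.064 without Nipbl+/- replicates 1 and 3), Slc3a2 between -0.091 and 0.0085 (0.0064 without WT replicate 3), Eif2ak2 between -0.055 and 0.095 and Zfp874a between -0.092 and 0.0057.

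The number of all tested genes called, 177 as reported, was 325 without a filter on low counts, 432 with the exact test, 442 with the likelihood ratio test, 449 with DESeq2, 3 with limma on RPKM, and 3 (without Nipbl+/- replicate 1) to 268 (without WT replicate 2) with a culture left out. The share of higher genes among the calls, 53.1% as reported, was 67.0% with library size alone, 33.3% with limma and 27.3% to 50.7% with a culture left out. With replicate number as a block, 86 genes were called (39.5% higher), none of them among the 9 or the pathway genes, and Eif2ak2 had 0.0014. Deviations of same-numbered cultures correlated at -0.06, -0.04 and -0.14. Each such pair joined a culture with abundant Xist reads to a culture without. The values therefore cannot show whether same-numbered cultures shared a preparation. Pathway genes called higher numbered 1 with library size alone, the exact test and the likelihood ratio test, 2 without the filter and with DESeq2, 1 with the quasi-likelihood test at legacy=FALSE (chosen after seeing the data, 198 genes called), and 0 to 1 with a culture left out. Those called lower numbered 1 without the filter, 2 with the exact and likelihood ratio tests, 3 with DESeq2 and 0 to 1 with a culture left out. Without WT replicate 2 the pair was Slc38a1 higher and Gss lower. Nipbl was -0.38 and not called with limma (adjusted p = 0.110), and lay between -0.47 and -0.39 with a culture left out. The planned legacy=TRUE fit is the default of edgeR 4.0.16 and was not run apart. Slc7a11 and Trib3 had the fewest counts of the 9 genes, with counting errors of up to 4.45% and 3.45% against 8.97% to 15.2% between cultures.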
